A study of Mus musculus with 8 samples.

Results

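The genes described here are 50 mouse genes that act on chromatin: subunits of the Polycomb repressive complexes, histone demethylases, histone methyltransferases with their partners, histone deacetylases, histone acetyltransferases, chromatin remodellers and histone chaperones. They were chosen by name, and an array probe was assigned to a gene where its accession matched that gene in RefSeq. Of the 50 genes, 48 had such a probe, 76 probes in all, among 18842 genes with a symbol on the array. Hdac1 and Chd7 had no matched probe and were not analysed here. All 48 passed the filter on dim probes that left 13625 genes of the array for testing, and 47 of them were well above background on all 8 arrays, so the filter selected no direction among them. The exception was Hdac9.

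Histone-modifying enzymes add or remove small chemical groups on the tails of the histones around which DNA is wound, and remodellers use ATP to slide, evict or rebuild nucleosomes. Polycomb repressive complex 2 (PRC2) methylates histone H3 and Polycomb repressive complex 1 (PRC1) ubiquitinates histone H2A, and both are known for holding developmental genes silent in stem and progenitor cells. Histone chaperones such as CAF-1 deliver new histones to DNA behind the replication fork, and several of these enzymes and chaperones are known as barriers to, or helpers of, the conversion of one cell type into another.

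The samples were total RNA of N31, a line of neural progenitor cells (NPC) that was obtained from embryonic stem cells of the mouse and made to express W20 or, as the control, the green fluorescent protein EGFP. The labels do not describe W20, the vectors or the factors that doxycycline switches on, nor whether N31 is 1 clone. The groups were W20 cells at 72 h, EGFP cells at 72 h, W20 NPC and EGFP NPC, with 2 arrays each, hybridised in 1 colour (Cy3) to Agilent whole mouse genome arrays. Cells at 72 h had been taken through the start of reprogramming, first 48 h with doxycycline (40 ng/ml) added to NPC medium, followed by 24 h with doxycycline in a medium built on GMEM that contained 10% KSR, ACTH and LIF (1000 U/ml). NPC were kept in their own medium with EGF and bFGF at 10 ng/ml each. Whether the 2 arrays of a group hold RNA of separate cultures is not in the labels, so p-values measure only the spread between arrays, which may be technical.

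A level is the log2 of the processed signal relative to the array's 75th percentile, and levels of different genes are not comparable because each probe binds differently. The 75th percentile ranged from 827 to 938 intensity units, the share of spots well above background was 57.0% to 62.4%, and replicate arrays correlated with r of 0.999 across probes in each group. The median SD of the members between replicates was 0.041 in W20 cells at 72 h, 0.048 in EGFP cells at 72 h, 0.021 in W20 NPC and 0.031 in EGFP NPC. All NPC arrays lay on 1 slide and all 72 h arrays on another, so stage and slide cannot be told apart, whereas W20 and EGFP were compared within a slide. On both slides the W20 arrays occupied positions 3 and 4 and the EGFP arrays positions 1 and 2, so position on the slide and construct cannot be told apart either. Of 14 neural progenitor markers, 9 were well above background on all 8 arrays and 1, Olig2, on none. The pluripotency genes Pou5f1 and Lin28a, the neuronal genes Syp and Snap25, the glial genes Aqp4 and Mog and the immune genes Ptprc and Aif1 were also not well above background on any array. Others of the same lists were well above background on all 8 arrays. These were 4 of 8 pluripotency, 3 of 8 neuronal, 5 of 7 astrocyte, 4 of 7 oligodendrocyte and 1 of 4 immune markers with a probe.

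The first question was what W20 did to these genes before and after the start of reprogramming. At 72 h, 19 members were higher and 6 lower in W20 than in EGFP cells at an adjusted p below 0.05 (limma, Benjamini-Hochberg over all genes), and 23 did not pass. Of all genes tested in that comparison 52.8% passed, 28.5% higher and 24.3% lower, so the members' total lay near the background while their split leaned to the higher side. In NPC, 13 members were higher, 16 were lower and 19 did not pass, against a background of 55.5% called, 31.8% higher and 23.7% lower. The 16 include Hdac9, whose W20 NPC arrays were below background, and 15 were lower without it. The median difference of the 48 members was 0.10 log2 units at 72 h and -0.017 in NPC, beside 0.035 and 0.041 over all genes. Apart from Hdac9 in NPC, for which no fold is given, no member differed 2-fold or more between W20 and EGFP cells at either stage. Of all 13625 genes, 456 passed with such a difference at 72 h and 558 in NPC. By each gene's brightest probe, the largest W20 differences by size were those of Hdac4 at 72 h (0.54 ± 0.05) and Smarcd3 in NPC (-0.61 ± 0.037), and the second Kdm5b probe had -0.70 ± 0.063 in NPC. With spike-in scaling the calls dropped to 6 at 72 h and 14 in NPC, where the median standard error over all genes was 0.0852 in place of 0.0491, and without array 2 of EGFP at 72 h they dropped to 16 at 72 h. Over all genes spike-in scaling gave calls for 30.5% at 72 h and 34.5% in NPC. The 6 of 48 members at 72 h lay below that share. With scaling on each array's median the split in NPC turned to 13 higher and 9 lower, and 65.2% of the calls over all genes were higher.

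**Figure D1:**
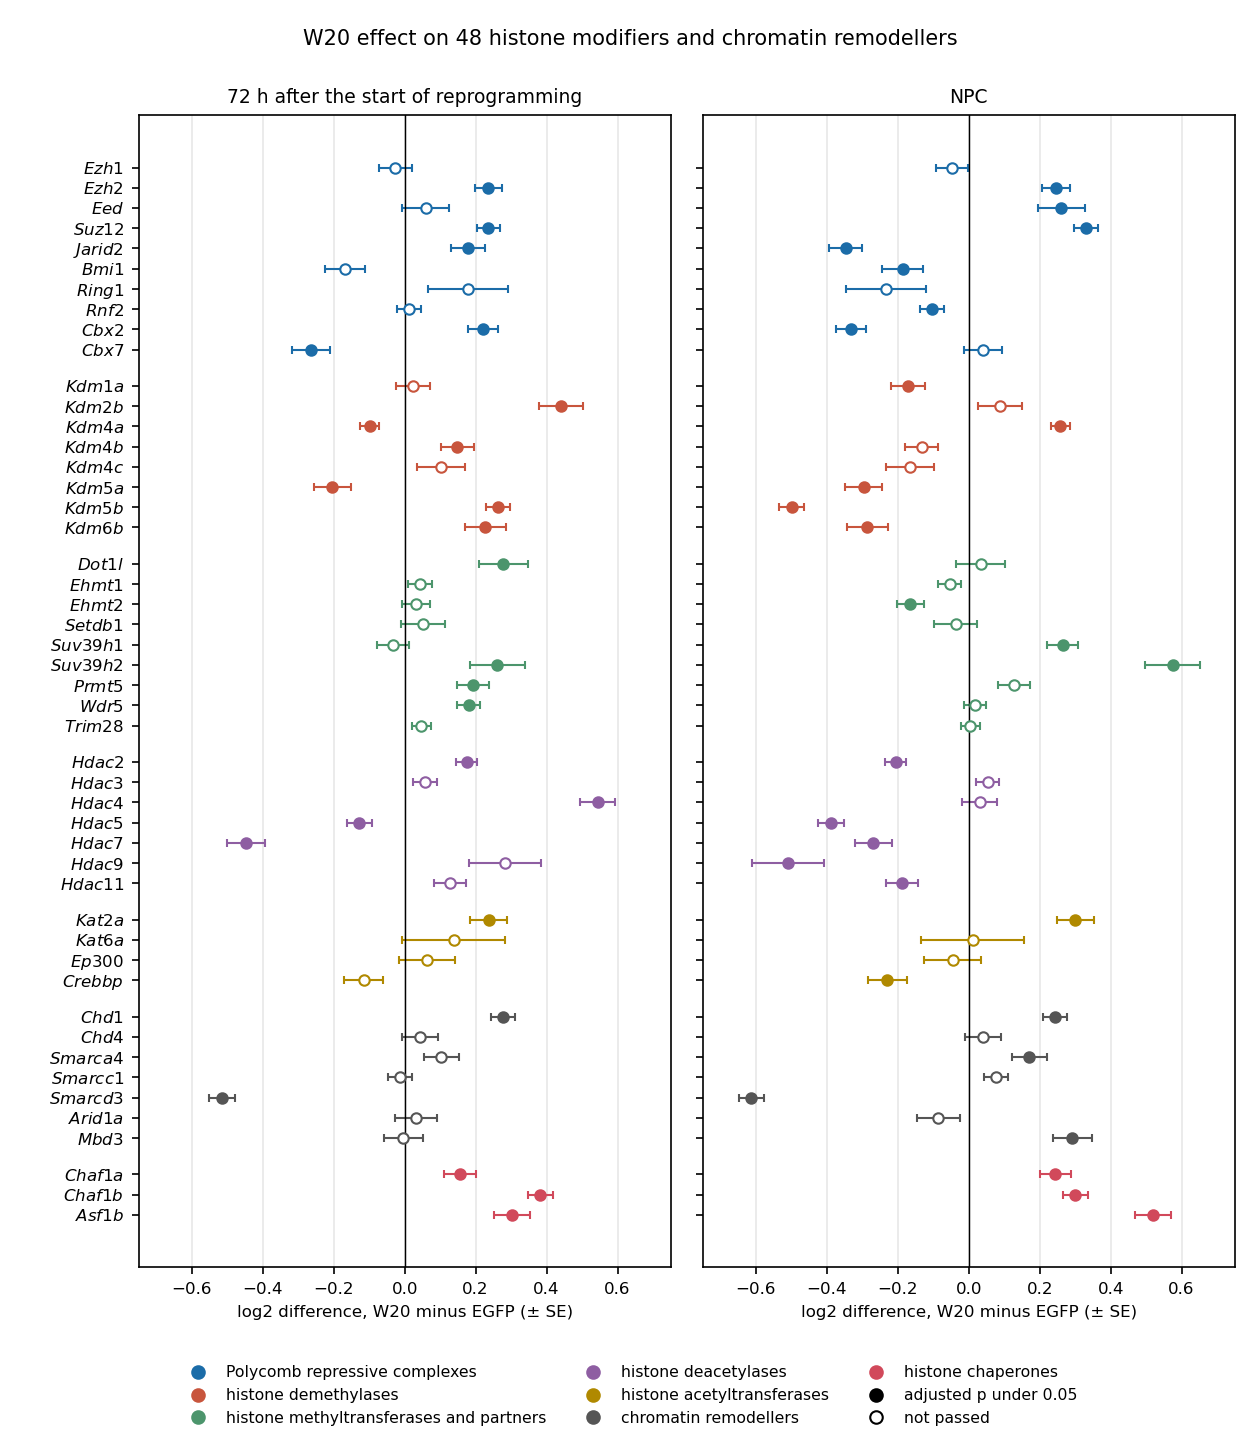
Log2 difference of W20 minus EGFP (± SE, 2 arrays per group) for the 48 measured members at 72 h (left) and in NPC (right), coloured by class, with filled points for an adjusted p under 0.05. The 3 histone chaperones lie right of 0 at both stages, whereas 5 of the 7 deacetylases lie left of 0 with filled points in NPC and 2 of the 7 at 72 h. The NPC point of Hdac9, 1 of the 5, was fitted to a W20 level below background and shows no direction.

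Among the Polycomb genes, Ezh2 and Suz12 of PRC2 were higher with W20, and the PRC2 accessory Jarid2 and the PRC1 chromodomain subunit Cbx2 changed side between the stages. Of 10 Polycomb genes, 4 were higher and 1 was lower at 72 h, and 3 were higher and 4 lower in NPC. For this class and those below, the shares of all genes were 28.5% higher and 24.3% lower at 72 h. In NPC the shares were 31.8% higher and 23.7% lower. Ezh2, the methyltransferase of PRC2, had levels of 1.82 and 1.83 with W20, versus 1.63 and 1.55 with EGFP at 72 h. In NPC they were 1.28 and 1.30 with W20, versus 1.07 and 1.01 with EGFP. At both stages the W20 arrays lay above the EGFP arrays without overlap, by 0.24 ± 0.039 (adjusted p = 0.00423) at 72 h and 0.25 ± 0.039 (adjusted p = 0.00326) in NPC. Suz12, which holds PRC2 together, had levels of 2.71 and 2.68 with W20, versus 2.47 and 2.44 with EGFP at 72 h and 2.80 and 2.82 with W20, versus 2.51 and 2.45 with EGFP in NPC. Its differences were 0.24 ± 0.033 (adjusted p = 0.00241) and 0.33 ± 0.033 (adjusted p = 0.000656), so it too was higher at both stages. Eed, the subunit that binds the methyl mark, was called in NPC alone, with a difference of 0.059 ± 0.066 (adjusted p = 0.483) at 72 h and 0.26 ± 0.066 (adjusted p = 0.0182) in NPC. That call was lost on omitting array 2 of EGFP NPC (adjusted p = 0.0927) or array 2 of W20 NPC (adjusted p = 0.0902), and the change of the Eed effect between stages did not pass (-0.20 ± 0.093, adjusted p = 0.158). Ezh1, the second PRC2 methyltransferase, did not pass at either stage (-0.026 ± 0.046 at 72 h and -0.048 ± 0.046 in NPC).

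Jarid2 had levels of 0.75 and 0.82 with W20, versus 0.65 and 0.56 with EGFP at 72 h and -0.53 and -0.58 with W20, versus -0.21 and -0.21 with EGFP in NPC. The W20 arrays lay above the EGFP arrays at 72 h and below them in NPC. The differences were 0.18 ± 0.047 (adjusted p = 0.022) at 72 h and -0.35 ± 0.047 (adjusted p = 0.0018) in NPC, and they differed from each other by 0.53 ± 0.066 (adjusted p = 0.00321). The 72 h call was lost on omitting array 2 of EGFP at 72 h (adjusted p = 0.102) or array 2 of W20 at 72 h (adjusted p = 0.0932). A second Jarid2 probe was also higher at 72 h (0.33 ± 0.099) but had a difference of 0.035 ± 0.099 in NPC, so the lower NPC value rests on 1 of 2 probes. On that second probe the effects were 0.29 apart, which did not pass. For Cbx2 the levels were 1.47 and 1.41 with W20, versus 1.24 and 1.20 with EGFP at 72 h and 0.25 and 0.21 with W20, versus 0.52 and 0.60 with EGFP in NPC. Here too the W20 arrays were the high ones at 72 h and the low ones in NPC, with differences of 0.22 ± 0.042 (adjusted p = 0.00697) and -0.33 ± 0.042 (adjusted p = 0.00145) that were 0.55 ± 0.06 (adjusted p = 0.00196) apart. The second Cbx2 probe gave 0.20 ± 0.11 and -0.21 ± 0.11, of the same signs but not past the threshold. These effects were 0.41 apart, which did not pass either.

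Cbx7, another chromodomain subunit, was lower with W20 at 72 h, where its levels were 2.05 and 2.16 with W20, versus 2.37 and 2.37 with EGFP, and had a difference of 0.039 ± 0.053 in NPC (adjusted p = 0.567). The 72 h difference was -0.26 ± 0.053 (adjusted p = 0.00887). Bmi1, the partner of the PRC1 ubiquitin ligases, had a difference of -0.17 ± 0.057 at 72 h (adjusted p = 0.0517) and of -0.19 ± 0.057 in NPC (adjusted p = 0.0359). The ligase Rnf2 had 0.012 ± 0.034 at 72 h (adjusted p = 0.789) and -0.10 ± 0.034 in NPC (adjusted p = 0.0443). Both NPC calls depended on single arrays: Bmi1 reached an adjusted p of 0.161 without array 2 of EGFP NPC, 0.0905 without array 1 of W20 NPC and 0.133 without array 2 of W20 NPC, and Rnf2 exceeded 0.05 without any 1 of the 8 arrays, up to 0.21 without array 2 of W20 NPC. Averaged over its 2 probes, Rnf2 in NPC had a difference of 0.011 (adjusted p = 0.862). The ligase Ring1 did not pass with its main, brighter probe (0.18 ± 0.11 at 72 h and -0.23 ± 0.11 in NPC), while its second probe passed at both stages with the same signs (0.17 ± 0.036 and -0.13 ± 0.036).

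Proliferation genes were higher with W20 in the same comparisons as Ezh2 and Suz12. Of 19 proliferation markers tested, 13 were higher and 0 lower at 72 h and 16 were higher and 0 lower in NPC, with medians of 0.22 and 0.30. Their summed signal, in units of the array's 75th percentile, was 351 and 344 with W20, versus 309 and 301 with EGFP, at 72 h and 329 and 335 with W20, versus 283 and 274 with EGFP in NPC, and all 19 were well above background on all 8 arrays. Of 9 mesenchymal markers 0 were higher and 7 lower with W20 at 72 h and 0 were higher and 9 lower in NPC, and their summed signal was 90.3 and 93.4 with W20, versus 136 and 140 with EGFP, at 72 h and 103 and 100 with W20, versus 149 and 170 with EGFP in NPC. Of 6 astrocyte markers tested 2 were higher and 3 lower with W20 at 72 h and 0 were higher and 4 lower in NPC. The summed signal of 7 astrocyte markers with a probe was 15.5 and 15 with W20, versus 12.9 and 13.3 with EGFP, at 72 h and 13.9 and 13.6 with W20, versus 25.1 and 26.7 with EGFP in NPC, and for Aqp4 no array gave a signal well above background. The part of these 3 groups of genes in the differences of the members was not tested. In bulk RNA, more cells of a kind and more RNA per cell cannot be told apart.

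The members' promoters were searched for the words bound by E2F factors. The words were TTTCCCGC, TTTCGCGC, TTTGCCGC and TTTGGCGC, on either strand, in windows of 300 bases that run from 250 bases before to 50 bases after a transcript's start (RefSeq, GRCm38.p6). Of the 41 members with a window, 5 held a word in at least 1 window (12.2%), against 704 of 27025 genes (2.60%). They were Ezh2, Suz12, Suv39h1, Kat2a and Arid1a. The first 4 of these were called higher in W20 NPC and are printed, with the word or its reverse complement in capitals. At 72 h Suv39h1 did not pass. Arid1a did not pass in any comparison, and none of the 3 chaperones held a word in its window. The comparison was with all genes that have a window, not only those tested, and was not matched for base composition. A match says only that the letters are there, and whether E2F factors act on these genes was not tested.
Ezh2, chr6:47594981-47595280, minus strand: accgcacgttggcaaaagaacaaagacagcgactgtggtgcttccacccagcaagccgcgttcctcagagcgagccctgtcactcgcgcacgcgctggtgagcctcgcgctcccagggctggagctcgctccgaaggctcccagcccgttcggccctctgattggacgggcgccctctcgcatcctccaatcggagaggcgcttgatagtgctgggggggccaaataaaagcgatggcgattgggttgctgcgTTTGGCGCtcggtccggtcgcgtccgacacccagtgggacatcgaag
Suz12, chr11:79992856-79993155, plus strand: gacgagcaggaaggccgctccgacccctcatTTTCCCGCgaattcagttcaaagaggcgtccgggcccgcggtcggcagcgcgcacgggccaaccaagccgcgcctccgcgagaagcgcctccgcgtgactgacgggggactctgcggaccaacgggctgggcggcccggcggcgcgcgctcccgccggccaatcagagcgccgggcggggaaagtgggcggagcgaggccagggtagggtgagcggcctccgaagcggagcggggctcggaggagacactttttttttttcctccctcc
Suv39h1, chrX:8074312-8074611, minus strand: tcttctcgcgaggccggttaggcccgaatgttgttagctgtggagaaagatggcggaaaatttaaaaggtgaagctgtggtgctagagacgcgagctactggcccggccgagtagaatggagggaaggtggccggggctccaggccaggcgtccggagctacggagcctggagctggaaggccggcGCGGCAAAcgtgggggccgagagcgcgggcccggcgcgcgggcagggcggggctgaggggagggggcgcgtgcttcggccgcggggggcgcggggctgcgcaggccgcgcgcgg
Kat2a, chr11:100712418-100712717, minus strand: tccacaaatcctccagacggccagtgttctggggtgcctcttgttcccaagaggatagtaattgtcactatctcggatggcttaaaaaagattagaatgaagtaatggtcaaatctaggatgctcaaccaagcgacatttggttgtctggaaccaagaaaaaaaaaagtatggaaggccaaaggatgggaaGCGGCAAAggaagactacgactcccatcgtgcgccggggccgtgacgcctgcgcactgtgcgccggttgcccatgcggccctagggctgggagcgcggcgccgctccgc
Counted from the start site as 0, the word begins at 3 in Ezh2, at -219 in Suz12, at -64 in Suv39h1 and at -59 in Kat2a.

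Of 8 demethylases, 4 were higher and 2 lower with W20 at 72 h, whereas 1 was higher and 4 were lower in NPC, and the W20 effect itself differed between stages for 5 of the 8. Over all members 17 of 48 passed this test of the difference, 13 with a higher and 4 with a lower W20 effect at 72 h than in NPC, against 30.9% of all genes, 14.1% higher and 16.8% lower. The members' total was thus near the background, and their split leaned to higher effects at 72 h. Without Hdac9, whose W20 NPC level is below background, 16 passed, 12 higher and 4 lower. The W20 effect was also higher at 72 h for 4 of 5 neuronal, 3 of 6 astrocyte, 3 of 6 oligodendrocyte and 5 of 9 mesenchymal markers. It was lower for 0, 1, 0 and 1 of them. Of 13 neural progenitor markers it was higher for 2 and lower for 2, and of 5 pluripotency markers higher for 1 and lower for 2. Of 19 proliferation markers it was higher for 0 and lower for 1, and for the 1 immune marker tested it was lower. The part of these markers in the members' difference was not tested. With spike-in scaling 3 members passed, 3 higher and 0 lower, against 14.0% of all genes called. Calls lower in NPC, higher at 72 h and with a called difference were made for 5 members, against 2.48% of all genes, and the opposite for 1 member, against 3% of all genes. The 5 were Kdm5b, Kdm6b, Jarid2, Cbx2 and Hdac2, and the 1 was Kdm4a.

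Kdm5b, which removes methyl groups from the promoter mark on histone H3, had levels of -0.70 and -0.66 with W20, versus -0.95 and -0.94 with EGFP at 72 h. In NPC its levels were -1.36 and -1.36 with W20, versus -0.89 and -0.83 with EGFP. W20 arrays were thus the high ones at 72 h (0.26 ± 0.034, adjusted p = 0.00184) and the low ones in NPC (-0.50 ± 0.034, adjusted p = 0.00021), with no overlap. The effects were 0.76 ± 0.049 apart (adjusted p = 0.000418). This difference passed in every alternative run, and the second Kdm5b probe moved in the same way (0.36 ± 0.063 at 72 h, -0.70 ± 0.063 in NPC, 1.05 ± 0.089 apart). Its relative Kdm5a, by contrast, was lower with W20 at both stages. Kdm5a had levels of 1.15 and 1.27 with W20, versus 1.38 and 1.45 with EGFP at 72 h and 1.50 and 1.45 with W20, versus 1.77 and 1.78 with EGFP in NPC, which gave -0.20 ± 0.052 (adjusted p = 0.0194) and -0.30 ± 0.052 (adjusted p = 0.00463). Its 3 probes had the same sign at both stages. The 72 h call of Kdm5a was lost on omitting array 2 of EGFP at 72 h (adjusted p = 0.0952) or array 1 of W20 at 72 h (adjusted p = 0.0721).

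Kdm6b, which removes the Polycomb methyl mark, had levels of 1.55 and 1.72 with W20, versus 1.40 and 1.43 with EGFP at 72 h and 0.99 and 0.99 with W20, versus 1.26 and 1.29 with EGFP in NPC. The groups did not overlap at either stage, with W20 above EGFP at 72 h and below it in NPC. The differences were 0.23 ± 0.058 (adjusted p = 0.0199) and -0.29 ± 0.058 (adjusted p = 0.00812), and they were 0.51 ± 0.082 apart (adjusted p = 0.00713). The 72 h call was lost on omitting array 1 of EGFP at 72 h (adjusted p = 0.0864) or array 2 of EGFP at 72 h (adjusted p = 0.062). Kdm4a, an eraser of the heterochromatin mark, was the 1 member that ran the other way. Its levels were 2.86 and 2.86 with W20, versus 2.96 and 2.96 with EGFP at 72 h and 3.48 and 3.50 with W20, versus 3.23 and 3.23 with EGFP in NPC. The W20 arrays were the low ones at 72 h (-0.099 ± 0.027, adjusted p = 0.0241) and the high ones in NPC (0.26 ± 0.027, adjusted p = 0.000704), and the effects were -0.36 ± 0.038 apart (adjusted p = 0.00182). The 72 h difference is small, and its call was lost on omitting any 1 of the 4 arrays of that stage (adjusted p of 0.08 without EGFP array 1, 0.094 without EGFP array 2, 0.0721 without W20 array 1 and 0.0684 without W20 array 2). A second Kdm4a probe passed with the same signs (-0.18 ± 0.056 and 0.25 ± 0.056).

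**Figure D2:**
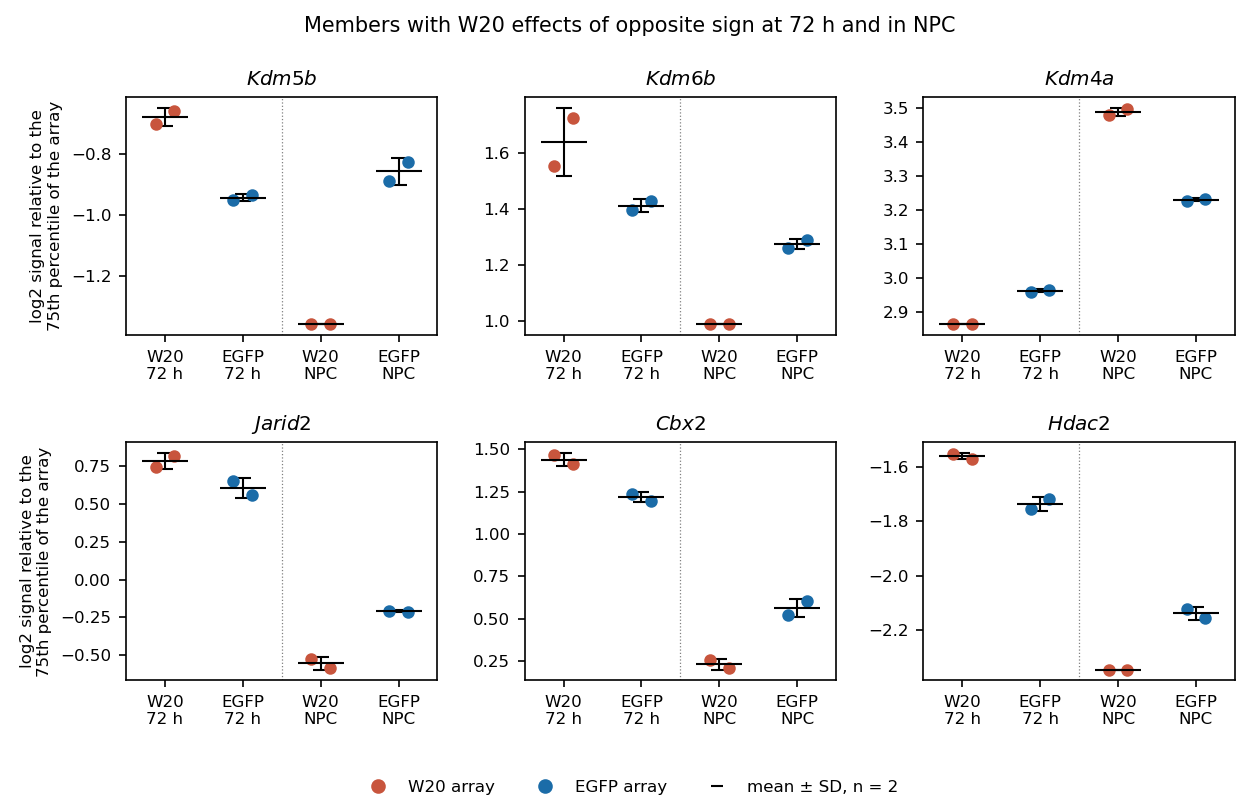
Log2 level relative to the array's 75th percentile for the 6 members called on opposite sides of EGFP at the 2 stages, in W20 and EGFP cells at 72 h and in W20 and EGFP NPC. Points are arrays and bars the mean ± SD of 2 arrays. Each axis has its own range. For 5 genes the W20 arrays lie above EGFP at 72 h and below it in NPC, and for Kdm4a the order is the other way round.

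Kdm2b, which recruits PRC1 to CpG islands, was higher with W20 at 72 h. Its levels were 0.34 and 0.27 with W20, versus -0.049 and -0.22 with EGFP at 72 h and -0.73 and -0.70 with W20, versus -0.80 and -0.81 with EGFP in NPC, with differences of 0.44 ± 0.061 (adjusted p = 0.00227) and 0.089 ± 0.061 (adjusted p = 0.267). The W20 arrays stood clear of the EGFP arrays at 72 h, and that call held in every alternative run. The effects were 0.35 ± 0.087 apart (adjusted p = 0.0294), a call that was lost on omitting any 1 of the 4 NPC arrays, with adjusted p of up to 0.0856 without array 1 of W20 NPC, and without array 1 of W20 at 72 h (0.0809) or array 2 of W20 at 72 h (0.0531). The second Kdm2b probe gave 0.39 ± 0.053 at 72 h and a difference of 0.48 ± 0.075 between stages, and both passed. Kdm4b, a relative of Kdm4a, had differences of 0.15 ± 0.046 (adjusted p = 0.0397) and -0.13 ± 0.046 (adjusted p = 0.0545). Its 72 h call reached an adjusted p of 0.153 without array 1 of W20 at 72 h, 0.133 without array 2 of EGFP at 72 h, 0.11 without array 1 of EGFP at 72 h and 0.062 without either W20 NPC array. Kdm1a, the flavin-dependent demethylase, had 0.024 ± 0.047 at 72 h (adjusted p = 0.697) and -0.17 ± 0.047 in NPC (adjusted p = 0.0246), and the NPC call was lost on omitting any 1 of the 4 NPC arrays (0.0674 without EGFP array 2, 0.0755 without W20 array 2, 0.0976 without W20 array 1 and 0.104 without EGFP array 1). Kdm4c passed at neither stage (0.10 ± 0.067 and -0.16 ± 0.067).

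Of 7 histone deacetylases, 2 were higher and 2 lower at 72 h, and in NPC Hdac2, Hdac5, Hdac7 and Hdac11 were lower, 4 of the 6 with a measured level in every group. No direction in NPC is given for Hdac9. The W20 effect was higher at 72 h than in NPC for 4 of these 6 (Hdac2, Hdac4, Hdac5 and Hdac11) and lower for 0, with 14.1% and 16.8% of all genes in these directions. Hdac2, a class I enzyme of the Sin3 and NuRD complexes, had levels of -1.55 and -1.57 with W20, versus -1.76 and -1.72 with EGFP at 72 h and -2.34 and -2.34 with W20, versus -2.12 and -2.15 with EGFP in NPC. The 2 W20 arrays were the high ones at 72 h and the low ones in NPC, with differences of 0.18 ± 0.03 (adjusted p = 0.00493) and -0.21 ± 0.03 (adjusted p = 0.00245), and these were 0.38 ± 0.043 apart (adjusted p = 0.00221). Hdac4, a class IIa enzyme that shuttles between nucleus and cytoplasm, differed at 72 h. Its levels there were 0.08 and 0.20 with W20, versus -0.40 and -0.41 with EGFP, a difference of 0.54 ± 0.05 (adjusted p = 0.000526). In NPC they were 0.0063 and -0.067 with W20, versus -0.062 and -0.061 with EGFP, where the arrays overlapped (0.031 ± 0.05, adjusted p = 0.625), and the effects were 0.51 ± 0.07 apart (adjusted p = 0.00428).

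Hdac5 and Hdac7, 2 further class IIa enzymes, were lower with W20 at both stages. Hdac5 had levels of 2.69 and 2.70 with W20, versus 2.84 and 2.81 with EGFP at 72 h and 2.00 and 1.96 with W20, versus 2.33 and 2.40 with EGFP in NPC, with differences of -0.13 ± 0.036 (adjusted p = 0.0288) and -0.39 ± 0.036 (adjusted p = 0.000516). The groups did not overlap, and the gap was smaller at 72 h, by 0.26 ± 0.051 (adjusted p = 0.0144). The 72 h call was lost on omitting any 1 of the 4 arrays of that stage (0.119 without EGFP array 1, 0.0749 without EGFP array 2, 0.0989 without W20 array 1 and 0.0745 without W20 array 2), and the difference between stages without array 2 of W20 NPC (0.0531). Hdac7 had levels of 1.52 and 1.66 with W20, versus 2.01 and 2.08 with EGFP at 72 h and 2.21 and 2.19 with W20, versus 2.45 and 2.48 with EGFP in NPC, again without overlap. The differences were -0.45 ± 0.053 (adjusted p = 0.00129) and -0.27 ± 0.053 (adjusted p = 0.00744), and both Hdac7 probes passed at both stages with the same sign. Hdac11, the class IV enzyme, had 0.13 ± 0.046 at 72 h (adjusted p = 0.0598) and -0.19 ± 0.046 in NPC (adjusted p = 0.0158). That NPC call was lost on omitting any 1 of the 4 NPC arrays, with adjusted p between 0.0526 without W20 array 1 and 0.0746 without W20 array 2. Hdac3 passed at neither stage (0.057 ± 0.033 and 0.053 ± 0.033).

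Hdac9, another class IIa enzyme, was the member without a signal above background in every group. Its main probe was not well above background on either W20 NPC array and well above it on the other 6 arrays, so the W20 NPC level is a bound and no fold or direction is given between W20 and EGFP NPC, nor for the change of the W20 effect between stages. At 72 h its levels were -3.27 and -3.23 with W20, versus -3.38 and -3.68 with EGFP (0.28 ± 0.10, adjusted p = 0.0618).

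Of 9 methyltransferases and partners, 4 were higher and 0 lower with W20 at 72 h, and 2 were higher and 1 lower in NPC. The heterochromatin methyltransferases Suv39h1 and Suv39h2 were higher in W20 NPC. Suv39h2 had levels of -1.43 and -1.53 with W20, versus -1.66 and -1.82 with EGFP at 72 h and -1.65 and -1.66 with W20, versus -2.15 and -2.31 with EGFP in NPC, which gave 0.26 ± 0.078 (adjusted p = 0.0339) and 0.57 ± 0.078 (adjusted p = 0.00184) with no overlap. Averaged over its 3 probes it passed at neither stage (adjusted p = 0.226 at 72 h and 0.0502 in NPC), and the 72 h call was lost on omitting array 2 of EGFP at 72 h (0.149), array 1 of W20 at 72 h (0.143), array 2 of W20 at 72 h (0.0545) or either W20 NPC array (0.0567). Suv39h1 had levels of 2.28 and 2.23 with W20, versus 2.32 and 2.25 with EGFP at 72 h, where the arrays overlapped, and 2.19 and 2.19 with W20, versus 1.97 and 1.88 with EGFP in NPC, where they did not. Its differences were -0.033 ± 0.045 (adjusted p = 0.565) and 0.26 ± 0.045 (adjusted p = 0.00408), and the effects were -0.30 ± 0.063 apart (adjusted p = 0.0183). The call of that difference between stages was lost on omitting array 2 of EGFP NPC (0.0502), array 1 of W20 NPC (0.0568), array 2 of W20 NPC (0.0571), array 1 of EGFP at 72 h (0.0585) or array 2 of W20 at 72 h (0.0542).

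At 72 h the enzymes and partners that passed besides Suv39h2 were Dot1l, Prmt5 and Wdr5. Dot1l, the methyltransferase of the core of histone H3, had levels of 0.15 and 0.24 with W20, versus -0.16 and -0.0063 with EGFP at 72 h and -0.97 and -0.91 with W20, versus -1.04 and -0.91 with EGFP in NPC. The W20 and EGFP arrays separated at 72 h (0.28 ± 0.07, adjusted p = 0.0188) and not in NPC (0.033 ± 0.07, adjusted p = 0.71), although the 2 other Dot1l probes passed as higher in W20 NPC (0.65 ± 0.20 and 0.43 ± 0.11), so the probes disagree there. The 72 h call was lost on omitting array 1 of EGFP at 72 h (0.0826) or array 2 of W20 at 72 h (0.0841). Wdr5, a scaffold of the MLL complexes, had 0.18 ± 0.031 at 72 h (adjusted p = 0.00507) and 0.017 ± 0.031 in NPC (adjusted p = 0.673), while its second probe was higher at both stages (0.40 ± 0.034 and 0.41 ± 0.034). Prmt5, an arginine methyltransferase, had 0.19 ± 0.045 (adjusted p = 0.0149) and 0.13 ± 0.045 (adjusted p = 0.0571), and its 72 h call was lost on omitting array 2 of EGFP at 72 h (0.0678) or array 1 of W20 at 72 h (0.0692). Ehmt2, the main methyltransferase of euchromatic silencing, had 0.032 ± 0.038 at 72 h (adjusted p = 0.514) and -0.17 ± 0.038 in NPC (adjusted p = 0.0135), a call that was lost on omitting array 2 of EGFP NPC (0.0649), array 1 of W20 NPC (0.0635) or array 2 of W20 NPC (0.0525). Its partner Ehmt1, the methyltransferase Setdb1 and the corepressor Trim28 passed at neither stage, with differences between -0.053 for Ehmt1 in NPC and 0.051 for Setdb1 at 72 h.

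Among the 4 acetyltransferases, Kat2a, the GCN5 enzyme of the SAGA complex, was higher with W20 at both stages. Its levels were -1.19 and -1.08 with W20, versus -1.40 and -1.34 with EGFP at 72 h and -1.02 and -1.07 with W20, versus -1.32 and -1.37 with EGFP in NPC. The W20 arrays lay above the EGFP arrays, by 0.24 ± 0.051 (adjusted p = 0.0113) and 0.30 ± 0.051 (adjusted p = 0.00432), and the 72 h call was lost on omitting array 1 of EGFP at 72 h (0.0601). Crebbp, a transcriptional coactivator, had -0.12 ± 0.054 at 72 h (adjusted p = 0.125) and -0.23 ± 0.054 in NPC (adjusted p = 0.0146), and the NPC call was lost on omitting array 1 of EGFP NPC (0.0593), array 2 of EGFP NPC (0.0607) or array 1 of W20 NPC (0.0704). Its relative Ep300 and the MYST-family enzyme Kat6a passed at neither stage.

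Of 7 remodellers, 1 was higher and 1 lower at 72 h, and 3 were higher and 1 lower in NPC. Smarcd3, a subunit of the BAF complex known as BAF60C, was lower with W20 at both stages. It had levels of 0.91 and 0.87 with W20, versus 1.40 and 1.42 with EGFP at 72 h and 1.13 and 1.09 with W20, versus 1.69 and 1.75 with EGFP in NPC. The W20 arrays were the low ones at both stages, with differences of -0.52 ± 0.037 (adjusted p = 0.000236) and -0.61 ± 0.037 (adjusted p = 0.00015), and both calls held in every alternative run. Chd1, a remodeller that binds the promoter mark of active genes, was higher at both stages. Its levels were 1.79 and 1.81 with W20, versus 1.49 and 1.55 with EGFP at 72 h and 1.45 and 1.49 with W20, versus 1.21 and 1.24 with EGFP in NPC, and the differences 0.28 ± 0.034 (adjusted p = 0.00149) and 0.24 ± 0.034 (adjusted p = 0.00204). All 3 of its probes passed at 72 h and 2 of the 3 in NPC. Mbd3, a subunit of the NuRD complex, was higher in W20 NPC, where its levels were 1.60 and 1.69 with W20, versus 1.35 and 1.35 with EGFP (0.29 ± 0.055, adjusted p = 0.00606), and overlapped between W20 and EGFP at 72 h with 1.60 and 1.47 with W20, versus 1.56 and 1.52 with EGFP (-0.0038 ± 0.055, adjusted p = 0.958). The effects were -0.30 ± 0.077 apart (adjusted p = 0.0353), a call that was lost on omitting 6 of the 8 arrays, with adjusted p of 0.0889 without array 1 of EGFP NPC, 0.0925 without array 2 of EGFP NPC, 0.0996 without array 2 of W20 NPC, 0.103 without array 1 of EGFP at 72 h, 0.0743 without array 2 of EGFP at 72 h and 0.0632 without array 2 of W20 at 72 h.

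The BAF ATPase Smarca4 (BRG1) had 0.10 ± 0.049 at 72 h (adjusted p = 0.129) and 0.17 ± 0.049 in NPC (adjusted p = 0.0291). Its NPC call was lost on omitting any 1 of the NPC arrays (0.109 without EGFP array 1, 0.087 without EGFP array 2, 0.0773 without W20 array 1 and 0.119 without W20 array 2) or either EGFP 72 h array (0.0504). The NuRD ATPase Chd4, the BAF subunit Arid1a and the main probe of the BAF subunit Smarcc1 passed at neither stage. The second Smarcc1 probe passed as higher at both (0.27 ± 0.048 at 72 h and 0.31 ± 0.048 in NPC).

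All 3 histone chaperones were higher with W20 at both stages, and they were the 1 class of the 7 with every member called on the same side at both. Chaf1a and Chaf1b are the large subunits of CAF-1, and Asf1b hands histones to it. Asf1b had levels of 3.47 and 3.35 with W20, versus 3.15 and 3.07 with EGFP at 72 h and 3.12 and 3.11 with W20, versus 2.59 and 2.61 with EGFP in NPC, with differences of 0.30 ± 0.05 (adjusted p = 0.0043) and 0.52 ± 0.05 (adjusted p = 0.000581). Chaf1b had levels of 3.84 and 3.79 with W20, versus 3.45 and 3.41 with EGFP at 72 h and 3.74 and 3.70 with W20, versus 3.44 and 3.40 with EGFP in NPC, with differences of 0.38 ± 0.035 (adjusted p = 0.000539) and 0.30 ± 0.035 (adjusted p = 0.00108). No W20 array fell among the EGFP arrays for either gene, and these 4 calls held in every alternative run. For Chaf1a the levels were 3.23 and 3.20 with W20, versus 3.10 and 3.01 with EGFP at 72 h and 3.35 and 3.31 with W20, versus 3.12 and 3.05 with EGFP in NPC, with differences of 0.16 ± 0.044 (adjusted p = 0.0287) and 0.24 ± 0.044 (adjusted p = 0.00539). Its 72 h call was lost on omitting array 2 of EGFP at 72 h (0.126), array 1 of W20 at 72 h (0.109) or array 2 of W20 at 72 h (0.0678). In all, 8 members were higher with W20 at both stages, against 17.8% of all genes, and 4 were lower at both, against 13.5%. The 8 were Ezh2, Suz12, Suv39h2, Kat2a, Chd1, Chaf1a, Chaf1b and Asf1b, and the 4 were Kdm5a, Hdac5, Hdac7 and Smarcd3.

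The probes of a gene give a second view of these effects. Of the 48 members 21 had several probes past the filter. Kdm5b, Kdm4a, Kdm5a, Suz12 and Hdac7 gave the same sign on every probe at both stages, and their probes passed. In NPC 11 of the 21 had probes that passed and probes that did not (Bmi1, Cbx2, Chd1, Dot1l, Hdac9, Jarid2, Ring1, Smarca4, Smarcc1, Suv39h2 and Wdr5), and at 72 h 5 had (Cbx2, Dot1l, Ring1, Smarcc1 and Suv39h2), with p-values adjusted over all probes.

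**Figure D3:**
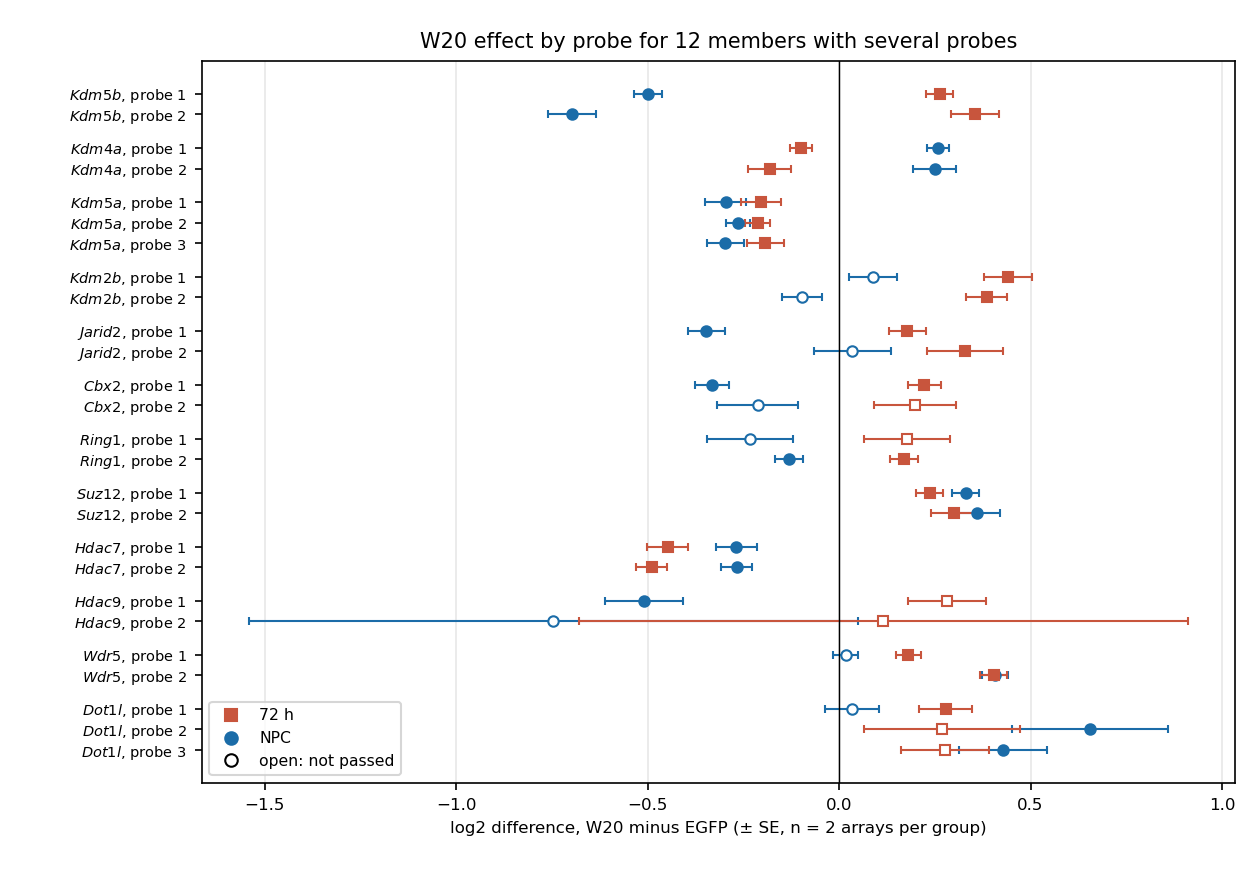
Log2 difference of W20 minus EGFP (± SE, 2 arrays per group) by probe for 12 members with several probes, at 72 h (squares) and in NPC (circles), with open symbols where the adjusted p was not under 0.05. Both probes of Kdm5b lie right of 0 at 72 h and left of 0 in NPC, and those of Hdac7 lie left of 0 at both stages. The second probe of Hdac9 has wide error bars.

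The second question was how the genes changed over the first 72 h of reprogramming. In W20 cells 26 members rose, 11 fell and 11 did not pass, beside a background of 74.7% of all genes called, 37.5% higher and 37.2% lower. In EGFP cells 21 rose, 11 fell and 16 did not pass, beside 70.0% called, 36.1% higher and 33.9% lower. The members' totals were close to these backgrounds, and their splits leaned to the higher side. The median change was 0.16 in W20 cells and 0.069 in EGFP cells, beside 0.0086 and 0.011 over all genes. Both comparisons gave the same direction for 27 members, 18 that rose in both kinds of cells (30.3% of all genes did) and 9 that fell in both (28.8%). The 9 include Smarcc1, whose probes passed with opposite signs, and without it 8 fell in both and 10 in each kind of cell. A rise of 2-fold or more was seen for 6 members in W20 cells and 1, Hdac9, in EGFP cells. Of all 13625 genes, 2427 passed with a change of 2-fold or more in either direction in W20 cells. In EGFP cells 1818 did. With scaling on each array's median the EGFP split was 22 higher and 7 lower, and 56.1% of the calls over all genes were higher. These changes combine reprogramming, doxycycline, the change of medium and the change of slide, which cannot be told apart. Over the same 72 h the summed signal of 8 neuronal markers reached 7.11 and 6.7, against 1.36 and 1.38 in NPC, in W20 cells and 5.37 and 5.06, against 1.71 and 1.79 in NPC, in EGFP cells, with 4 of the 5 tested markers higher and 0 lower in W20 cells and 3 higher and 1 lower in EGFP cells, and its part in the changes was not tested. The summed signal of the 7 astrocyte markers at 72 h was 15.5 and 15, against 13.9 and 13.6 in NPC, in W20 cells and 12.9 and 13.3, against 25.1 and 26.7 in NPC, in EGFP cells, with 2 of the 6 tested higher and 4 lower in W20 cells and 0 higher and 6 lower in EGFP cells. Of 9 mesenchymal markers 2 were higher and 4 lower at 72 h in W20 cells, and 1 was higher and 6 were lower in EGFP cells. The part of these markers was not tested either.

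**Figure D4:**
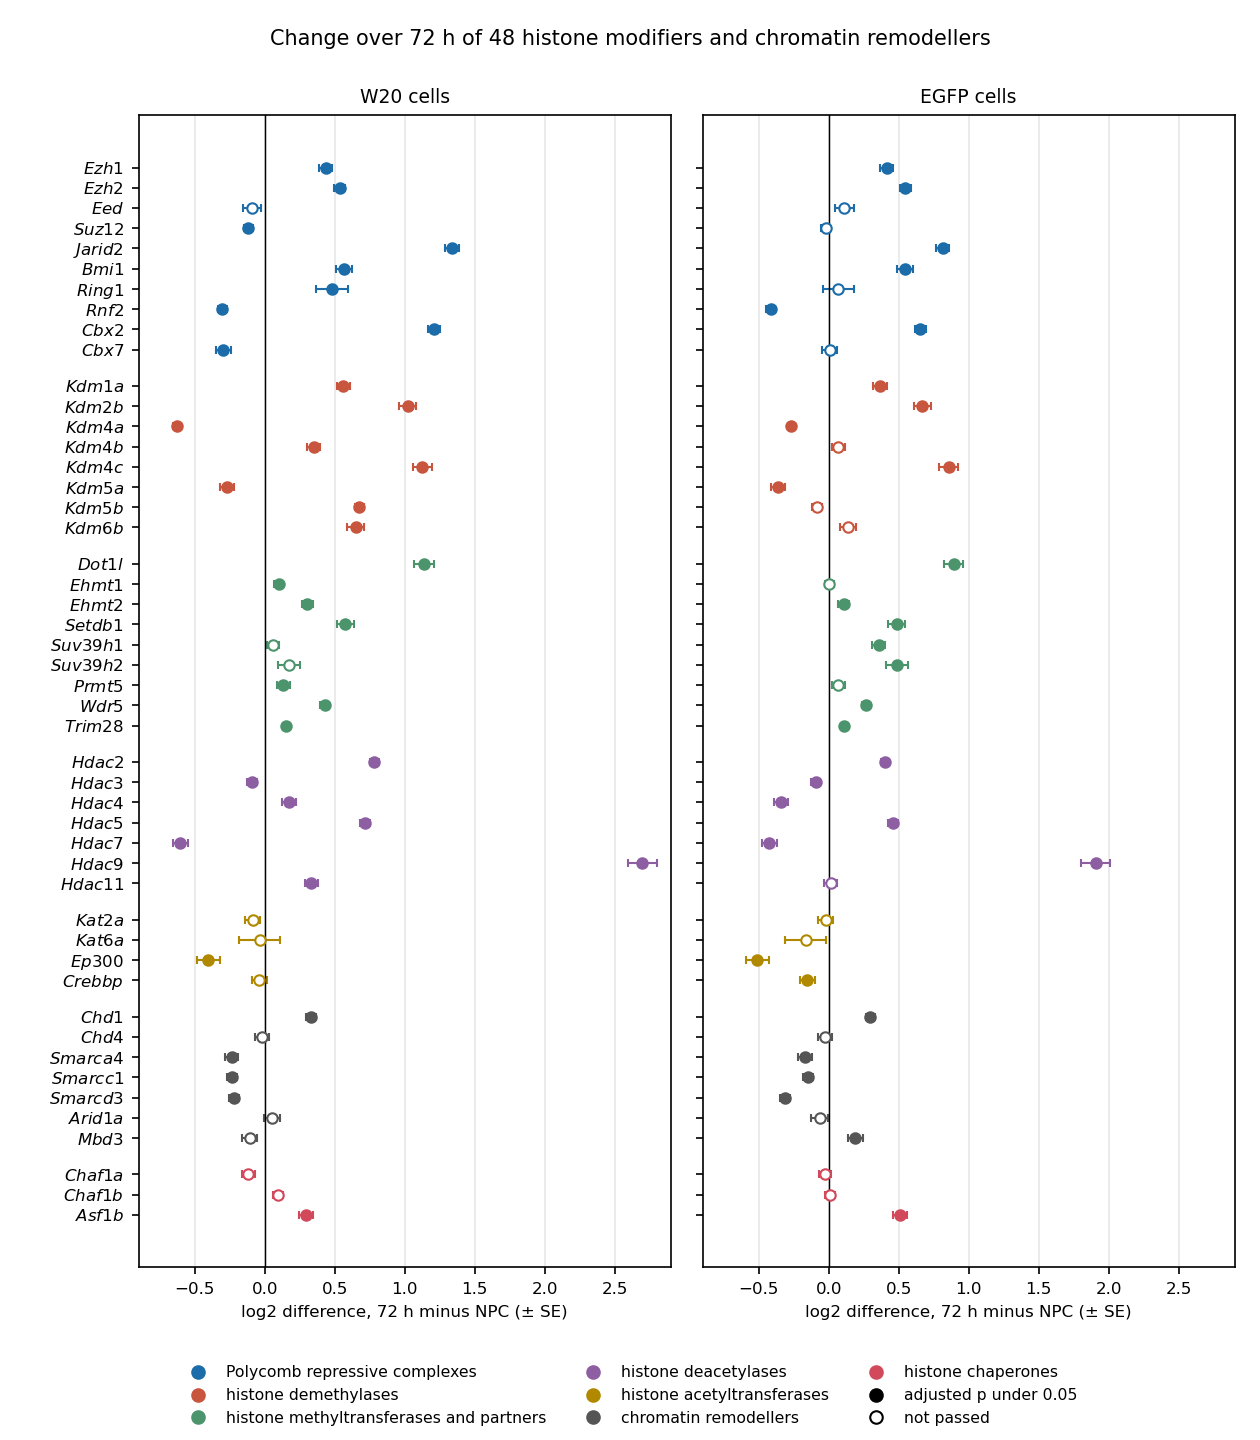
Log2 difference of 72 h minus NPC (± SE, 2 arrays per group) for the 48 measured members in W20 cells (left) and EGFP cells (right), coloured by class, with filled points for an adjusted p under 0.05. Hdac9 lies farthest right in both panels, followed in W20 cells by Jarid2 and Cbx2. The value of Hdac9 in W20 cells was fitted against a level below background.

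By the brightest probe, the largest rise was that of the deacetylase Hdac9, which represses MEF2 targets. With the levels given above at 72 h and -5.88 and -6.02 with W20 and -5.45 and -5.43 with EGFP in NPC, it rose at least 4.53-fold in W20 cells and by 1.91 ± 0.10 in EGFP cells (adjusted p = 2.11e-05). The fitted difference in W20 cells, which uses the NPC values below background, was 2.70 (adjusted p = 3.72e-06). The bound itself was not tested. In EGFP NPC the Hdac9 level lay near the lowest signals well above background on those arrays, so the EGFP rise starts near the floor. The second Hdac9 probe did not pass (1.05 ± 0.80 in W20 cells and 0.19 ± 0.80 in EGFP cells), and averaged over both probes the EGFP change did not pass (adjusted p = 0.0695). In W20 cells Jarid2 and Cbx2 followed, Jarid2 with 1.34 ± 0.047 in W20 cells (adjusted p = 2.85e-06) and 0.81 ± 0.047 in EGFP cells (adjusted p = 2.84e-05). Cbx2 changed by 1.21 ± 0.042 in W20 cells (adjusted p = 2.83e-06) and 0.65 ± 0.042 in EGFP cells (adjusted p = 4.43e-05). Both probes of each of these 2 Polycomb genes rose in both kinds of cells. Further Polycomb genes that rose in both were Ezh2 (0.54 ± 0.039 and 0.55 ± 0.039), Bmi1 (0.56 ± 0.057 and 0.55 ± 0.057) and Ezh1 (0.44 ± 0.046 and 0.42 ± 0.046), whereas Rnf2 fell in both (-0.30 ± 0.034 and -0.42 ± 0.034). For Bmi1 and Rnf2 the second probe passed in neither. Suz12 passed in W20 cells with -0.12, a call that was lost on omitting array 1 of W20 NPC (0.0644), array 2 of W20 NPC (0.0935) or array 2 of W20 at 72 h (0.0821), while its second probe fell in both (-0.34 ± 0.059 and -0.28 ± 0.059). Cbx7 fell in W20 cells (-0.30 ± 0.053, adjusted p = 0.00306) and had a difference of 0.006 ± 0.053 in EGFP cells. Ring1 rose in W20 cells (0.48 ± 0.11), and its second probe rose in both.

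Among the demethylases, Kdm4c and Kdm2b rose most by the brightest probe, while the second Kdm5b probe rose by 1.15 ± 0.063 in W20 cells. Kdm4c had levels of -0.087 and -0.063 at 72 h, against -1.19 and -1.21 in NPC, in W20 cells and of -0.097 and -0.26 at 72 h, against -1.10 and -0.97 in NPC, in EGFP cells, with rises of 1.13 ± 0.067 (adjusted p = 2.34e-05) and 0.86 ± 0.067 (adjusted p = 9.72e-05). All 72 h arrays stood above all NPC arrays. Kdm2b rose by 1.02 ± 0.061 in W20 cells (adjusted p = 2.41e-05) and 0.67 ± 0.061 in EGFP cells (adjusted p = 0.000188), and Kdm1a by 0.56 ± 0.047 and 0.37 ± 0.047. Kdm5b and Kdm6b rose in W20 cells (0.68 ± 0.034, adjusted p = 1.19e-05 and 0.65 ± 0.058, adjusted p = 0.00013) and had differences of -0.085 ± 0.034 and 0.14 ± 0.058 in EGFP cells. The difference between the 2 kinds of cells is the same quantity as the change of the W20 effect given above, and it passed for both genes. Kdm4a fell by 0.62 in W20 cells and by 0.27 in EGFP cells, and Kdm5a by 0.27 and 0.36.

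Of the 9 methyltransferases and partners, 7 passed as higher in each kind of cell and 0 as lower, beside 37.5% of all genes higher in W20 cells and 36.1% in EGFP cells. Calls for Ehmt1, Ehmt2, Prmt5 and Trim28 were lost on omitting single arrays. Dot1l was the largest of them, with 1.14 ± 0.07 in W20 cells (adjusted p = 2.57e-05) and 0.89 ± 0.07 in EGFP cells (adjusted p = 9.53e-05). Of its 2 other probes, 1 passed in both (0.74 ± 0.11 and 0.89 ± 0.11) and the other in EGFP cells alone. Setdb1 rose by 0.58 ± 0.061 in W20 cells and 0.49 ± 0.061 in EGFP cells, and Wdr5 by 0.43 ± 0.031 and 0.27 ± 0.031. Suv39h1 passed in EGFP cells (0.36 ± 0.045, adjusted p = 0.000692) and had 0.06 ± 0.045 in W20 cells. The rise of Suv39h2 in EGFP cells (0.49 ± 0.078) did not hold with normexp background correction, where the value was -0.056 (adjusted p = 0.336), nor with the mean over its probes (0.297). In W20 cells Suv39h2 had 0.18 ± 0.078 (adjusted p = 0.0857), against -0.13 with normexp correction (adjusted p = 0.0414), so its direction there depends on the background correction. The corepressor Trim28 rose by 0.15 ± 0.027 and 0.11 ± 0.027, the second of which was lost on omitting array 2 of EGFP NPC (0.0522) or array 2 of EGFP at 72 h (0.0575). Ehmt1 and Prmt5 passed in W20 cells with 0.10 and 0.13, and Ehmt2 in EGFP cells with 0.11, beside 0.30 ± 0.038 in W20 cells (adjusted p = 0.000623). The calls with 0.10, 0.13 and 0.11 were lost on omitting single arrays, with adjusted p of up to 0.138 for Ehmt1 without array 1 of W20 NPC, 0.143 for Prmt5 without array 1 of W20 NPC or array 1 of W20 at 72 h, and 0.213 for Ehmt2 without array 2 of EGFP at 72 h.

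Deacetylases moved apart over the same time. Hdac2 rose by 0.78 ± 0.03 in W20 cells (adjusted p = 3.99e-06) and 0.40 ± 0.03 in EGFP cells (adjusted p = 8.19e-05), and Hdac5 by 0.72 ± 0.036 and 0.46 ± 0.036. Hdac7 fell in both, with differences of -0.60 ± 0.053 (adjusted p = 0.000124) and -0.42 ± 0.053 (adjusted p = 0.000705). Hdac4 took opposite signs, with 0.17 ± 0.05 in W20 cells (adjusted p = 0.0211) and -0.34 ± 0.05 in EGFP cells (adjusted p = 0.00135). The W20 call of Hdac4 was lost on omitting array 2 of W20 NPC (0.106) or array 2 of W20 at 72 h (0.0783), while the difference between the cells passed, as given above. Hdac11 rose in W20 cells (0.33 ± 0.046) and had 0.016 ± 0.046 in EGFP cells. Hdac3 passed as lower in both, by under 0.1 log2 units, and both calls were lost on omitting any 1 of the 8 arrays, with adjusted p of up to 0.155 without array 2 of W20 at 72 h in W20 cells and 0.196 without array 1 of EGFP at 72 h in EGFP cells.

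Of 4 acetyltransferases none rose in either kind of cell, and of the 6 remodellers other than Smarcc1, 1 rose and 2 fell in W20 cells and 2 rose and 2 fell in EGFP cells. Of all genes 37.5% rose and 37.2% fell in W20 cells, and 36.1% rose and 33.9% fell in EGFP cells. Ep300, the acetyltransferase of enhancers, fell by 0.40 in W20 cells (adjusted p = 0.0047) and by 0.51 in EGFP cells (adjusted p = 0.00187), with levels of -1.04 and -0.81 at 72 h, against -0.53 and -0.52 in NPC, in W20 cells and of -1.02 and -0.96 at 72 h, against -0.52 and -0.44 in NPC, in EGFP cells. All NPC arrays lay above all 72 h arrays. Smarcd3 fell by 0.22 in W20 cells and by 0.31 in EGFP cells, Smarca4 by 0.24 and 0.17, and Chd1 rose by 0.33 and 0.30. Mean values over the 3 Smarca4 probes did not pass (adjusted p = 0.113 and 0.566), and the EGFP call was lost on omitting any 1 of the 4 EGFP arrays, with adjusted p of up to 0.0946 without array 2 of EGFP at 72 h. No direction is given for Smarcc1, whose 2 probes passed with opposite signs (-0.23 ± 0.034 and 0.43 ± 0.048 in W20 cells, -0.15 ± 0.034 and 0.47 ± 0.048 in EGFP cells). Mbd3 passed in EGFP cells with 0.19, and its adjusted p without single EGFP arrays was up to 0.0977 without array 1 of EGFP at 72 h. Crebbp passed in EGFP cells with -0.15, a call that was lost on omitting single arrays, with an adjusted p of up to 0.195 without array 1 of EGFP at 72 h. Of the chaperones, Asf1b rose in both kinds of cells (0.29 ± 0.05 and 0.51 ± 0.05), and Chaf1a and Chaf1b passed in neither.

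The rest of the chromatin machinery served as a frame. Of 145 further chromatin genes listed by class, 136 were tested. At 72 h 41 were higher and 17 lower with W20, and in NPC 34 were higher and 26 lower, shares that lay below the backgrounds of 52.8% and 55.5% called given above. Over 72 h 50 rose and 53 fell in W20 cells, and 39 rose and 48 fell in EGFP cells, 75.7% called in W20 cells, beside 74.7% of all genes, and 64.0% in EGFP cells, beside 70.0%. The W20 effect differed between stages for 32 of them (23.5%, beside 30.9% of all genes), 19 with a higher and 13 with a lower effect at 72 h.

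Among the 37 further remodellers, the largest W20 differences were in subunits of BAF and ISWI complexes. Dpf1, a BAF subunit of the neuronal form of the complex, was higher with W20 at 72 h (0.76 ± 0.044, adjusted p = 0.000132) and in NPC (0.16 ± 0.044, adjusted p = 0.0273), with levels of -0.046 and -0.076 with W20, versus -0.83 and -0.81 with EGFP at 72 h and -1.81 and -1.71 with W20, versus -1.94 and -1.89 with EGFP in NPC. Phf10, the BAF subunit of neural progenitors that Dpf1 replaces in neurons, was also higher at both stages (0.62 ± 0.047 and 0.32 ± 0.047), with levels of 3.00 and 2.96 with W20, versus 2.39 and 2.32 with EGFP at 72 h and 3.61 and 3.62 with W20, versus 3.34 and 3.24 with EGFP in NPC. Over the 72 h the 2 subunits parted, Dpf1 rising by 1.70 ± 0.044 in W20 cells and 1.10 ± 0.044 in EGFP cells, and Phf10 changing by -0.64 ± 0.047 and -0.94 ± 0.047. Smarca1, the ISWI ATPase known as SNF2L, was lower with W20 at both stages (-0.35 ± 0.067 at 72 h and -1.19 ± 0.067 in NPC), and the effect differed between stages (0.84 ± 0.095, adjusted p = 0.00226). Hells, a remodeller of heterochromatin, was higher at both (0.17 ± 0.042 and 0.56 ± 0.042). Chd5, a neuronal remodeller, fell over 72 h at least 2.02-fold in W20 cells and at least 2.58-fold in EGFP cells, since it was not well above background at 72 h.

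Of 13 further demethylases, 1 that is not named here differed 2-fold or more between W20 and EGFP cells in NPC. Jmjd6, a protein with a JmjC domain, was higher at both stages (0.51 ± 0.044 at 72 h and 0.20 ± 0.044 in NPC), and Kdm3a changed side as Kdm5b did (0.33 ± 0.043, adjusted p = 0.00185 at 72 h and -0.31 ± 0.043, adjusted p = 0.00202 in NPC, 0.64 ± 0.061 apart). Kdm3a removes methyl groups from the heterochromatin mark. Among 22 further Polycomb genes, the PRC2 partner Phf1 was lower with W20 at both stages (-0.51 ± 0.045 and -0.24 ± 0.045) and fell over 72 h by 1.09 in W20 cells and by 0.82 in EGFP cells. Scmh1, a PRC1-associated protein, rose over the same time (1.03 ± 0.043 and 1.25 ± 0.043). Of 27 further methyltransferases, Nsd2 was higher with W20 at both stages (0.44 ± 0.047 and 0.61 ± 0.047), and Kmt2c rose by 1.40 ± 0.099 in W20 cells and 0.85 ± 0.099 in EGFP cells. In the other deacetylase complexes, Rcor2, a corepressor that partners Kdm1a, was higher at 72 h (0.62 ± 0.045, adjusted p = 0.000251) and had 0.082 ± 0.045 in NPC (adjusted p = 0.172), a difference between stages of 0.54 ± 0.064 (adjusted p = 0.00253). Among 12 further acetyltransferases and readers, Kat6b was lower with W20 at both stages (-0.48 ± 0.076 and -0.41 ± 0.076), and Kat2b, the close relative of Kat2a, rose over 72 h (0.97 ± 0.062 and 1.10 ± 0.062). Of 11 further chaperones, 3 were higher, 0 lower and 8 did not pass with W20 at 72 h. In NPC 4 were higher, 1 was lower and 6 did not pass. Hira, which deposits the replication-independent histone H3 variant, and Nasp, which stores histones, were higher at both stages (0.30 ± 0.051 and 0.21 ± 0.051 for Hira, 0.20 ± 0.034 and 0.23 ± 0.034 for Nasp).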

How the data were processed

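RNA of 8 samples in 4 groups was hybridised to 1-colour Agilent arrays, 2 arrays per group. Per the file headers, the authors' scanner files came from Agilent Feature Extraction 10.7.3.1, whose processed signal is an intensity, background-subtracted within the array and not scaled between arrays, with flags of 0 or 1 for spots. The authors' deposited table of log2 values has no stated centring. Its NPC columns equalled the log2 processed signals after a shift, the 72 h columns did not match their arrays, and only the NPC columns were used, as an alternative.

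Control spots and outlier flags were left out, spots of a probe were averaged, and log2 processed signals were set relative to each array's 75th percentile. Each gene was represented by its brightest probe, and the other probes are given beside it. All 4 groups were fitted together with limma 3.58.1 in R 4.3.3 (lmFit, eBayes, Benjamini-Hochberg over 13625 genes, threshold 0.05), with 4 residual degrees of freedom. A gene below background in a whole group has only a bound on its fold. With 2 arrays per group, precision is limited. The pipeline was tested on simulated data. Coordinates are given for the RefSeq promoter windows alone, since the array was annotated on an older genome build.

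All 50 members may be named. Values in full are given for up to 3 members per class and comparison past the threshold with the largest absolute difference. The further chromatin genes named are a selection, and not every one with a large difference is named. Members, lists and the promoter search were chosen with earlier results of these data known. Alternatives were normexp background correction (on median signals, since mean signals were not used here), quantile, median and spike-in scaling, other filters on dim probes, the mean over probes, only the groups compared, a replicate block, an intensity trend, the deposited table and each array left out. Slide as a block was not run, because slide and stage coincide.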

Additional observations from a re-analysis of the deposited data

Results flagged for a closer look

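The difference between the W20 effect at 72 h and the W20 effect in NPC passed its own limma test for 17 members, or 16 without Hdac9. The effect was more positive at 72 h for Kdm5b by 0.76 (adjusted p = 0.000418), Cbx2 by 0.55 (adjusted p = 0.00196), Jarid2 by 0.53 (adjusted p = 0.00321), Kdm6b by 0.51 (adjusted p = 0.00713), Hdac4 by 0.51 (adjusted p = 0.00428) and Hdac2 by 0.38 (adjusted p = 0.00221). It was also more positive for Kdm2b by 0.35 (adjusted p = 0.0294), Hdac11 by 0.32 (adjusted p = 0.0163), Kdm4b by 0.28 (adjusted p = 0.0251), Hdac5 by 0.26 (adjusted p = 0.0144), Ehmt2 by 0.2 (adjusted p = 0.0414) and Wdr5 by 0.16 (adjusted p = 0.04). It was more negative at 72 h for Kdm4a by -0.36 (adjusted p = 0.00182), Cbx7 by -0.3 (adjusted p = 0.0307), Suv39h1 by -0.3 (adjusted p = 0.0183) and Mbd3 by -0.3 (adjusted p = 0.0353). The fitted value of 0.79 for Hdac9 (adjusted p = 0.0112) rests on W20 NPC arrays below background, so no direction is given, and the adjusted p over its probes was 0.352.

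Of the 17 calls, 2 passed in every alternative run. Besides the losses given above for Kdm2b, Mbd3, Suv39h1 and Hdac5, calls for Cbx7, Ehmt2, Kdm4b, Hdac11 and Wdr5 were lost when single arrays were omitted. The highest adjusted p was 0.0895 for Cbx7 (array 1 of W20 NPC), 0.115 for Ehmt2 (array 1 of W20 NPC), 0.0793 for Kdm4b (array 1 of W20 NPC), 0.0555 for Hdac11 (array 2 of W20 NPC) and 0.113 for Wdr5 (array 2 of W20 NPC). The second Wdr5 probe had a difference of -0.0035 ± 0.049. Second probes of Cbx2 (0.41) and Jarid2 (0.29) did not pass for the difference. All differences between stages given here are also differences between slides, and stage and slide cannot be told apart in them.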

How the results depend on the processing

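With spike-in scaling the members called numbered 14 in NPC, 6 at 72 h and 3 for the difference of the W20 effects, against 29, 25 and 17. Of all genes 34.5%, 30.5% and 14.0% were called with that scaling. For the difference of the W20 effects, median scaling gave 9 members, beside 21.5% of all genes. Without a filter on dim probes it gave 11, beside 16.2%. Leaving out 1 array at a time gave 22 to 29 calls in NPC, 16 to 26 at 72 h, 32 to 36 over time in W20 cells, 25 to 30 over time in EGFP cells and 8 to 14 for the difference of the W20 effects. The lowest of these came without array 2 of EGFP at 72 h (16) and without array 2 of W20 NPC (8), and without array 1 of W20 NPC that difference had 11 calls.

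Among values that passed in the main fit or in the alternative, signs turned for 3 genes. Turns of values that passed in neither were not counted. With normexp correction Suv39h2 over time was -0.13 in W20 cells (adjusted p = 0.0414) and -0.056 in EGFP cells (adjusted p = 0.336). With the mean over probes Rnf2 in NPC was 0.011, and Smarcc1 was 0.13 for W20 at 72 h, 0.10 over time in W20 cells and 0.16 over time in EGFP cells, where its 2 probes differ in sign. The cause of the other changes was not tested. Of the members' calls, 11 of 29 in NPC, 6 of 25 at 72 h, 29 of 37 over time in W20 cells, 23 of 32 over time in EGFP cells and 2 of 17 for the difference passed in every alternative run.

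Replicate numbers were not treated as pairs in the main fit. Correlations of same-numbered arrays' deviations ranged from -0.09 to 0.149, and among EGFP NPC and both 72 h groups they were 0.107, 0.149 and 0.116. Such values cannot show whether the numbers mark a pairing. With the replicate block, calls numbered 24 at 72 h, 29 in NPC, 39 over time in W20 cells, 29 over time in EGFP cells and 16 for the difference of the W20 effects.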
